A study of Homo sapiens with 5 samples.

Results

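Androgen receptor target genes were followed in irradiated LNCaP cells with and without depletion of RB1. The set was KLK3, KLK2, HERC3, STEAP4, C1orf116, FKBP5, PMEPA1 and TARP, chosen by name. Of these 8 genes, 7 had a probe set with 1 gene name in the platform annotation, among 14812 genes measured in that way. PMEPA1 was the exception and is not analysed here. LNCaP is an established human prostate cancer line from a lymph node metastasis that is sensitive to androgen. Both groups carried a retroviral short hairpin RNA under puromycin selection, either a scrambled sequence (shControl, 2 arrays) or a hairpin against RB1 (shRB, 3 arrays), and both had received 10 Gy of ionizing radiation 24 h before RNA was isolated. The labels name serum in the medium, but no added androgen, no androgen removal and no receptor inhibitor. Unirradiated cells were not analysed here, so the values compare RB1-depleted with control cells after irradiation. A single hairpin against RB1 is named. Nothing states that replicate arrays stem from independent cultures, and every p-value then reflects only the spread between arrays, which may be technical.

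The androgen receptor is a steroid-activated transcription factor. Without ligand it is held by heat shock protein chaperones. With androgen bound it enters the nucleus, binds DNA as a dimer with the help of pioneer factors such as FOXA1, and recruits coactivators. In luminal prostate cells its targets include secreted kallikrein proteases, enzymes of lipid synthesis and its own co-chaperone FKBP5, so that their transcript levels are widely used as a readout of receptor activity. RB1 encodes the retinoblastoma protein, which restrains E2F transcription factors.

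The deposited values were intensities on a linear scale, shown here as log2. The lowest value of every array lay just above 16, a log2 of 4, which behaves as a floor and compresses the differences of dim genes. Array medians were 26.65 to 28.06. Across genes, r was 0.983 to 0.986 between shRB arrays, 0.967 between the shControl arrays and 0.955 to 0.970 across the groups. RB1 itself stood at a log2 intensity of 5.81 and 5.70 in shControl and at 5.16, 5.28 and 5.20 in shRB, so that all shRB arrays lay lower, but the difference of -0.54 (SE 0.14) missed the threshold of 0.05 in limma (adjusted p = 0.0967). In such bulk RNA, fewer cells with a transcript and less transcript per cell cannot be told apart.

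Receptor dimers recognise an inverted repeat of the hexamer AGAACA around a spacer of 3 bases, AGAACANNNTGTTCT. To show the regulatory sequence of the targets, the RefSeq promoter windows (build GRCh38.p14, 250 bases before to 50 bases after the annotated start) were searched on both strands for this element, for AGAACA and for the variant GGAACA. The table held windows for 7 of the 8 genes, 12 windows in all, since HERC3 and FKBP5 have 2 annotated starts and PMEPA1 has 4; TARP was not matched. The full element was in none of the 12 windows and in 1 of all 35116 windows (0.00285%). Only exact matches counted, so an element with a changed letter in either hexamer was missed, and the count cannot show that such elements are absent. AGAACA or GGAACA was in 6 of the 12 windows, against 26.2% of all windows, of which 14.8% held AGAACA and 14.0% held GGAACA. The 6 include windows of PMEPA1, which was not analysed, and the related windows of KLK3 and KLK2. The 12 windows are thus not independent. Such a match is a description of the letters and not evidence of binding, and enhancers outside the windows were not searched.

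The windows of KLK3 and KLK2 are shown because these neighbouring genes share their promoter sequence and had like values on the arrays. The window of C1orf116 is shown because it holds the variant in a gene with higher values in shRB. The window of the first start of HERC3 is shown as that of a gene that rose and holds neither. Each reads 5′ to 3′ on the strand of the gene, and capitals mark AGAACA or GGAACA. They lie at chr19:50854665-50854964 (plus strand), chr19:50873189-50873488 (plus strand), chr1:207032707-207033006 (minus strand) and chr4:88523593-88523892 (plus strand).
KLK3: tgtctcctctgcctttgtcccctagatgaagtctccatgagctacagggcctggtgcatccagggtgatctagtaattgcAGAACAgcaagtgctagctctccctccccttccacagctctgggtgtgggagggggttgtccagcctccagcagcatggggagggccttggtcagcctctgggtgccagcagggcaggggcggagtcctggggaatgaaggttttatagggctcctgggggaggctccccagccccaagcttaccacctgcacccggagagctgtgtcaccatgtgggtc
KLK2: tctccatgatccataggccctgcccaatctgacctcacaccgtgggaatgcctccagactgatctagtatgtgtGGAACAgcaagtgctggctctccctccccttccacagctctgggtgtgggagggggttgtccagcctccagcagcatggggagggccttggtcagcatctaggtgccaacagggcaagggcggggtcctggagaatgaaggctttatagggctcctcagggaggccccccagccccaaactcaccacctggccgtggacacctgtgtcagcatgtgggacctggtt
C1orf116: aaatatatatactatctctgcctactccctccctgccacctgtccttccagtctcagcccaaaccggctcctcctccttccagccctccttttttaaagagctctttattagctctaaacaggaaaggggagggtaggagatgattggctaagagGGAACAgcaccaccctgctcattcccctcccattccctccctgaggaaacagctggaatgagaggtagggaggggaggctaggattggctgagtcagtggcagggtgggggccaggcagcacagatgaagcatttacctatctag
HERC3: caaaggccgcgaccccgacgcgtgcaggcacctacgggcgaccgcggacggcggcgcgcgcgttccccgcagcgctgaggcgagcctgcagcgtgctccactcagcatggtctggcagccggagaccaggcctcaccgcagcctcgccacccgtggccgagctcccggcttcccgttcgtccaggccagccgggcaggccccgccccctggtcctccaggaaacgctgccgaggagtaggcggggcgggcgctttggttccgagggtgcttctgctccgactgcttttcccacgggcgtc

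In KLK3 the hexamer AGAACA begins at base -170 from the annotated start. In KLK2 the variant begins at -176. From the second base of each hexamer both genes continue with the same run of 14 bases, GAACAGCAAGTGCT, which is in the windows of KLK2 and KLK3 and in no other window searched (0.0057% of them). Aligned end to end, the windows of KLK3 and KLK2 were identical at 245 positions and mismatched at 46, or 84.2% identical where aligned, with an unbroken shared run of 80 bases. In C1orf116 the variant begins at -95. In FKBP5, AGAACA begins at the first transcribed base of 1 of the 2 starts. STEAP4 held neither hexamer, and neither did the second start of HERC3.

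The comparison of shRB with shControl asked whether transcripts of androgen receptor targets differ when RB1 is depleted in irradiated cells. They did not move together. TARP fell, HERC3 rose, STEAP4 and C1orf116 were higher on every shRB array without passing the test, and KLK3, KLK2 and FKBP5 overlapped between groups. Of the 7 genes, 1 passed as higher and 1 as lower, that is 2 of 7. Over all 14812 genes, 0.695% passed as higher, 0.378% as lower and 1.07% in either direction (limma, Benjamini-Hochberg adjusted p under 0.05). The targets were brighter than this background, with medians per shControl array of 8.53 to 8.74 against 5.22 to 5.28 over all genes. With the dimmer genes left out, 385 of 7406 genes and 2 of the 6 targets tested passed. Arrays did not overlap between groups for 4 of the 7 genes, 3 higher and 1 lower. Over all genes this held for 36.0%, with 20.6% higher and 15.4% lower, and 18.1% of genes had an unadjusted p under 0.05, as had 4 of the 7. The median log2 difference (shRB minus shControl) of the 7 genes was -0.021, beside 0.024 over all genes. Its sign turned, to 0.025 after quantile normalization, to 0.07 without shControl replicate 1 and to 0.14 without shRB replicate 3. Among all genes 103 were higher and 56 lower, so that 64.8% of the calls were increases. This share was 52.2% after quantile normalization (60 of 115 calls). With 16 subtracted and 4 added before the logarithm it was 30.8%, but of 13 calls only, 4 of them increases.

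**Figure D1:**
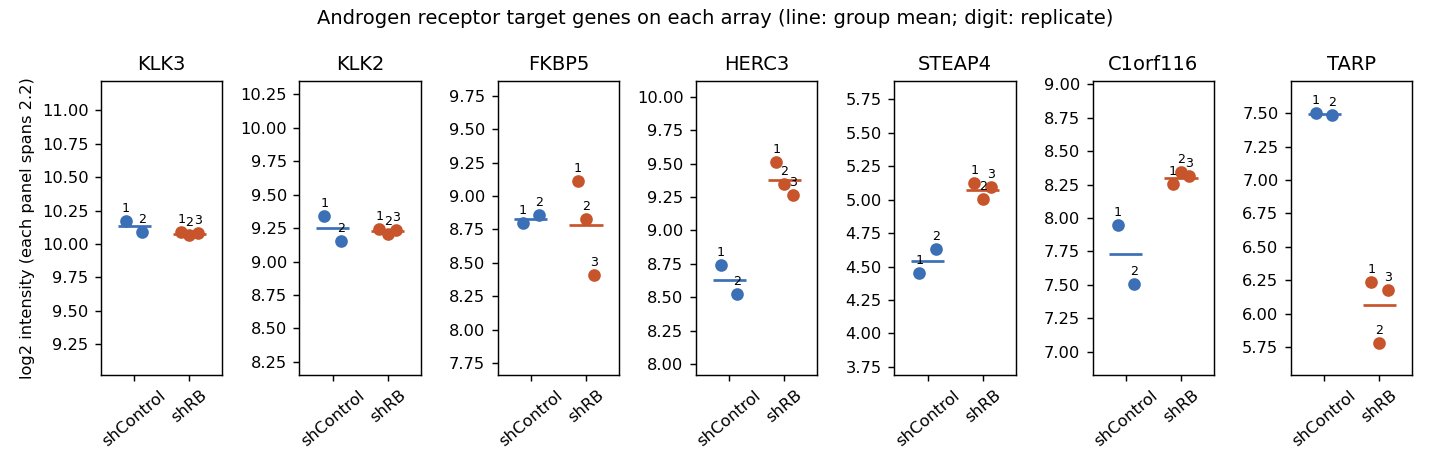
Log2 intensity (vertical axis, each panel spanning the same width of log2 units) of the 7 target genes on the 2 shControl arrays (blue) and 3 shRB arrays (orange), with digits for the replicate number and lines for group means. KLK3, KLK2 and FKBP5 overlap between groups, HERC3, STEAP4 and C1orf116 lie higher on all 3 shRB arrays, and TARP lies lower, at 5.78 to 6.24 against 7.48 and 7.50.

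KLK3 encodes prostate-specific antigen, the secreted serine protease that liquefies semen and serves as the clinical marker of receptor activity. Its log2 intensity (probe set 16864616, chromosome 19) was 10.17 and 10.09 in shControl and 10.09, 10.06 and 10.08 in shRB. The 5 arrays thus lay within a narrow band, and shRB replicate 1 equalled shControl replicate 2 to 2 decimals. The means were 10.08 ± 0.01 (SD, n = 3) and 10.13 ± 0.06 (SD, n = 2), a difference of -0.05 with a 95% interval of -0.37 to 0.26 (limma adjusted p = 0.875). KLK2 encodes a trypsin-like kallikrein that can activate the precursor of prostate-specific antigen. It stood at 9.34 and 9.16 in shControl and at 9.24, 9.21 and 9.24 in shRB (probe set 16864628). The shRB arrays lay between the shControl arrays, and the difference was -0.02 with a 95% interval of -0.34 to 0.30 (adjusted p = 0.958). For these bright genes the intervals exclude a change as large as that of HERC3 or TARP, while smaller changes remain within them. The transcripts of KLK2 and KLK3 are closely related in sequence, and whether their probe sets share signal was not tested.

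The other kallikreins lie beside them on chromosome 19, and all 14 listed, pseudogene KLKP1 included, were measured. None passed the test (limma), and 4 had an unadjusted p under 0.05, beside 18.1% of all genes. KLK4, a kallikrein of prostate and enamel that is also androgen regulated, was lower on every shRB array, at 9.03, 9.10 and 8.92 against 9.34 and 9.39 (difference -0.35, adjusted p = 0.24). KLKP1, which follows KLK2 in gene order, was higher on every shRB array, at 5.83, 5.69 and 5.80 against 5.23 and 5.33 (0.49, adjusted p = 0.117). KLK9 differed by -0.59 (adjusted p = 0.152) and KLK7, a chymotrypsin-like protease of skin, by 0.33 (adjusted p = 0.264). Over the 14 genes 5 differences were positive and 9 negative, with a median of -0.06. Most of these genes were dim, with medians per array of 5.14 to 5.25 in shControl and 4.86 to 5.15 in shRB. Their differences are therefore compressed by the floor, while KLK4 was bright.

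FKBP5 encodes FKBP51, a co-chaperone of HSP90 that binds steroid receptor complexes and is itself induced by androgen and glucocorticoid. Its log2 intensity was 8.79 and 8.86 in shControl and 9.11, 8.83 and 8.41 in shRB (probe set 17018497, chromosome 6). The shControl arrays were close together, while the shRB arrays spread over 0.70 log2 units on both sides of them. The difference was -0.04 with a 95% interval of -0.47 to 0.39 (adjusted p = 0.935). It became -0.21 without shRB replicate 1 and 0.14 without shRB replicate 3, so its sign rests on single arrays. Of its family 3 of 17 listed genes were measured and none passed. FKBP7 stood at 0.25 (adjusted p = 0.405), AIPL1 at -0.30 (0.382) and FKBPL at -0.03 (0.956), and no FKBP family gene had an unadjusted p under 0.05.

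HERC3 encodes a ubiquitin ligase with a HECT domain and an RCC1-like domain. Its log2 intensity was 8.74 and 8.53 in shControl and 9.51, 9.35 and 9.27 in shRB (probe set 16968797, chromosome 4). The lowest shRB array lay 0.53 above the highest shControl array. The means were 8.63 ± 0.15 (SD, n = 2) in shControl and 9.37 ± 0.12 (SD, n = 3) in shRB. HERC3 thus rose by 0.74, or 1.67-fold (SE 0.15, 95% interval 0.40 to 1.08, limma adjusted p = 0.0491). The adjusted p lies just under the threshold. With each array left out in turn, HERC3 passed in 1 of 5 fits, that without shControl replicate 1 (0.0384). That fit has 1 shControl array, which is assumed to vary like the shRB arrays, since the spread comes from these alone; the same holds for every fit without a shControl array. It was 0.0951 without shControl replicate 2 and 0.221, 0.189 and 0.197 without shRB replicate 1, 2 or 3. All 5 other HERC genes were measured and none passed, with differences from -0.23 in HERC2 to 0.32 in HERC4 and no unadjusted p under 0.05. HERC5 and HERC6, interferon-induced paralogs next to HERC3, stood at -0.06 (adjusted p = 0.863) and 0.18 (adjusted p = 0.603).

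Transcripts that overlap or follow HERC3 also rose. NAP1L5, a nucleosome assembly protein family gene whose span lies within that of HERC3, had log2 intensities of 4.81 and 4.75 in shControl and 5.687, 5.944 and 5.999 in shRB. It rose by 1.09 (SE 0.16, adjusted p = 0.00898), from a level close to the floor. FAM13A-AS1, an antisense transcript that is the next measured gene after HERC3, had 5.21 and 6.10 in shControl and 6.76, 6.79 and 7.03 in shRB, a rise of 1.20 (SE 0.23, adjusted p = 0.034). Its shControl arrays differed from each other by more than any of the 3 shRB arrays did among themselves. With 1 array left out, NAP1L5 passed in 3 of 5 fits, missing without shRB replicate 2 (adjusted p = 0.0845) or 3 (0.113), and FAM13A-AS1 in 1, that without shControl replicate 2. The 9 other measured genes within this stretch, from IBSP to ATOH1, did not pass, with differences from -0.30 in MMRN1 to 0.30 in SPP1. For comparison, the stretches of measured genes around KLK3, KLK2, C1orf116, FKBP5 and TARP, 5 on each side, held 0 genes past the threshold each, and that around STEAP4 held 1, CFAP69, which fell by 0.88 (adjusted p = 0.028). These wider stretches were chosen after the values of NAP1L5 were seen. They also held many genes near the floor, and those of KLK3 and KLK2 share most of their genes. Whether the probe sets of HERC3 and NAP1L5 share signal was not tested.

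**Figure D2:**
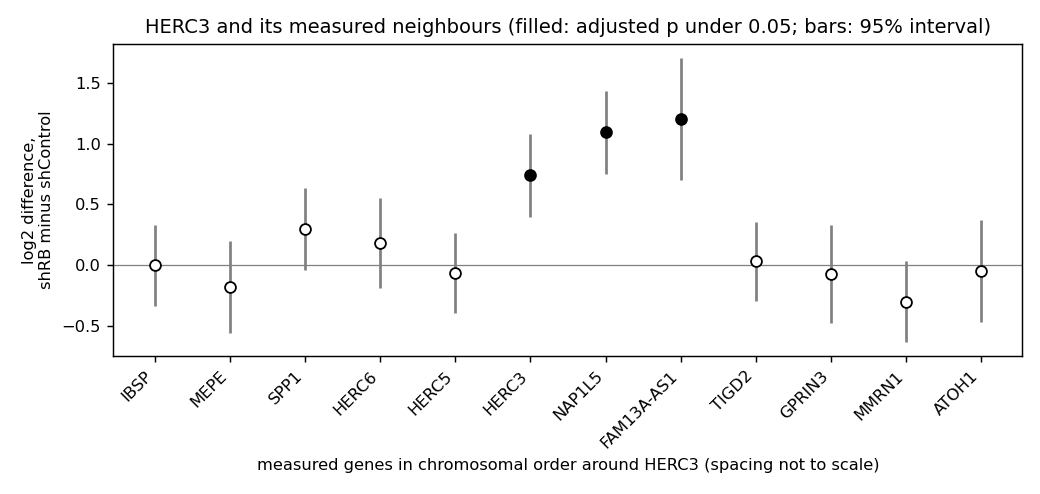
Log2 difference between shRB and shControl (vertical axis) of HERC3 and the measured genes around it in chromosomal order (horizontal axis, spacing not to scale), with 95% intervals from limma. Filled points passed at an adjusted p under 0.05. These are HERC3 (0.74), NAP1L5 (1.09) and FAM13A-AS1 (1.20), next to one another in the order. Most of the other genes lay near the floor.

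STEAP4 encodes a metalloreductase of the plasma membrane and endosomes that reduces iron and copper. Its log2 intensity was 4.45 and 4.63 in shControl and 5.13, 5.01 and 5.10 in shRB (probe set 17059567, chromosome 7). All 3 shRB arrays lay higher, by a gap of 0.37 between the nearest arrays, but the gene is dim and all values lie near the floor. The difference of 0.53 (SE 0.15) did not pass (adjusted p = 0.103), nor in any fit without an array (0.0876 to 0.312). As deposited the level was 1.45-fold higher in shRB, and with 16 taken off the linear values it was 2.42-fold higher, so its size depends on that constant. Of 4 listed relatives 2 were measured, and neither passed nor had an unadjusted p under 0.05. STEAP1, a related prostate membrane protein, stood at 0.19 (adjusted p = 0.61) and STEAP1B at -0.36 (adjusted p = 0.29).

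C1orf116, also called SARG for specifically androgen-regulated gene, encodes a cytoplasmic protein of little known function. It stood at 7.95 and 7.51 in shControl and at 8.25, 8.34 and 8.31 in shRB (probe set 16698756, chromosome 1). The shRB arrays were close to each other and above both shControl arrays, which themselves differed by 0.44. The difference was 0.57 (SE 0.17, 95% interval 0.21 to 0.94), 1.49-fold on the deposited scale, and did not pass (adjusted p = 0.112). Its size rests on the shControl arrays. It was 0.79 without shControl replicate 1 (adjusted p = 0.039) and 0.35 without shControl replicate 2 (adjusted p = 0.261). Either fit has 1 shControl array and leaves out the 0.44 by which the shControl arrays differed, so the lower p is no sign of stability. Its measured neighbours on chromosome 1, PIGR (-0.20, adjusted p = 0.541) and YOD1 (0.01, adjusted p = 0.977), did not pass.

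TARP is transcribed within the T cell receptor gamma locus on chromosome 7 and, in prostate epithelium, encodes a protein in an alternative reading frame. Its log2 intensity was 7.50 and 7.48 in shControl and 6.24, 5.78 and 6.17 in shRB (probe set 17056817). The shControl arrays differed by 0.02, and the highest shRB array lay 1.24 below them. The means were 7.49 ± 0.01 (SD, n = 2) in shControl and 6.06 ± 0.25 (SD, n = 3) in shRB. TARP thus fell by 1.43 (SE 0.17, 95% interval -1.80 to -1.05, limma adjusted p = 0.0028). That is 2.69-fold lower as deposited and 3.18-fold lower with 16 taken off. Among all genes 9 had a more negative difference. It passed whichever of the 5 arrays was left out (adjusted p = 0.0114 to 0.0483). With 16 subtracted and 4 added before the logarithm the difference was -1.62 and missed the threshold (adjusted p = 0.097).

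The RefSeq gene table places TRGC1, TRGJ1 and TRGJP within the span of TARP, and none of them had a named probe set, so the probe set cannot be said to measure TARP apart from them. TRG-AS1, the next measured gene, lay near the floor in all arrays (4.31 to 4.58, difference 0.10, adjusted p = 0.774), and STARD3NL on the other side stood at -0.08 (adjusted p = 0.851). Of the blood and endothelial markers, 6 of 16 listed were measured, none of them a CD3 gene, and none passed, with 1 unadjusted p under 0.05, that of VWF. CD8A of cytotoxic T cells stood at 4.94 and 4.86 in shControl and 4.84, 4.80 and 4.58 in shRB, and NKG7 of killer cells at 4.94 and 5.28 against 4.86, 5.22 and 5.01. The medians of this list per array ran from 4.94 to 5.07 in shControl and from 4.79 to 5.01 in shRB. Their part in the fall of TARP was not tested.

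PMEPA1 encodes a membrane protein induced by androgen and by TGF-beta that recruits NEDD4-type ubiquitin ligases and restrains SMAD signalling. In its place 10 of 19 listed relatives and pathway genes were measured. None passed and 1 had an unadjusted p under 0.05. That gene, SMAD7, an inhibitor of TGF-beta receptors, was higher on every shRB array, at 5.12, 4.76 and 4.82 against 4.30 and 4.46 (0.52, adjusted p = 0.135). Its values lie near the floor. LDLRAD4, the closest relative of PMEPA1, stood at -0.23 (adjusted p = 0.566).

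A wider list of 103 androgen-responsive genes, without the 8 above, had 58 measured members. Of these, 2 passed as higher, FADS1 and IDI1, and 0 as lower (limma), beside 0.695% and 0.378% of all genes. At an unadjusted p under 0.05, 9 were higher and 3 lower. The difference was above 0 for 32 and below 0 for 26 of them, and the median was 0.045 beside 0.024 over all genes. Arrays did not overlap for 25 of 58, beside 36.0% of all genes, and 18.1% of all genes had an unadjusted p under 0.05. FADS1, a fatty acid desaturase, stood at 7.22 and 7.32 in shControl and 8.22, 8.13 and 8.32 in shRB, a rise of 0.95 (adjusted p = 0.0139). It did not pass without shRB replicate 1, 2 or 3 (0.111, 0.0841 and 0.135). IDI1, an isomerase of cholesterol synthesis, rose by 0.91 (adjusted p = 0.0398) and passed in none of the fits without an array (0.0519 to 0.197). Next by p were the signal peptidase subunit SPCS3, at 0.83 (adjusted p = 0.0631), and SAT1, the acetyltransferase that degrades polyamines, at -0.57 (adjusted p = 0.0933). SAT1 stood at 9.18 and 9.17 in shControl and at 8.71, 8.61 and 8.50 in shRB.

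**Figure D3:**
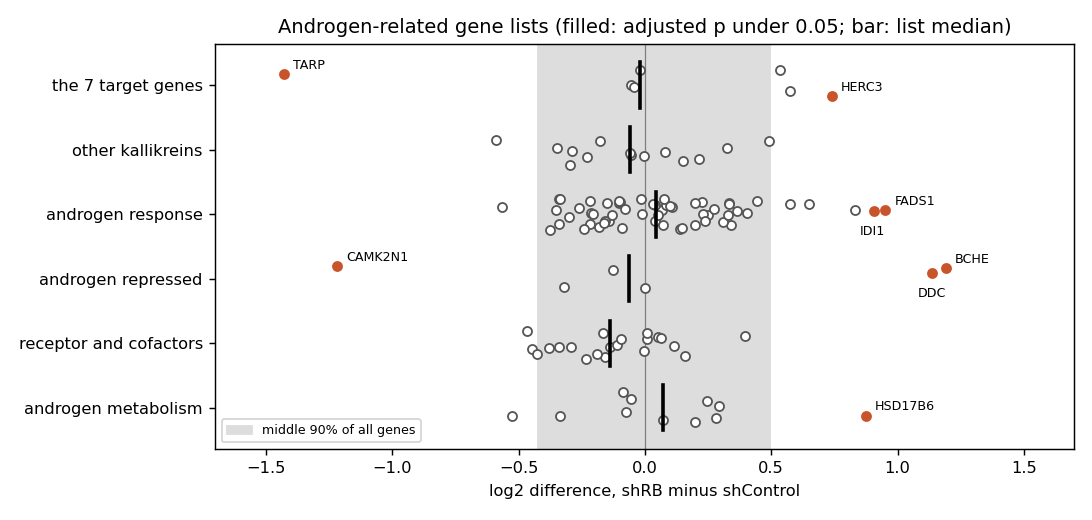
Log2 difference between shRB and shControl (horizontal axis) of each measured gene in 6 androgen-related lists (rows; vertical position within a row has no meaning), with bars for list medians and a grey band for the middle 90% of all genes. Filled points passed at an adjusted p under 0.05: TARP and HERC3 among the 7 target genes, FADS1 and IDI1 among androgen-responsive genes, CAMK2N1, DDC and BCHE among genes listed as repressed by androgen, and HSD17B6 among enzymes of androgen metabolism.

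Of 16 symbols listed as repressed by androgen, where CXCR7 and ACKR3 name the same gene, 6 were measured. Of these, 3 passed (limma), moving in both directions, beside 1.07% of all genes. The list was written with earlier results of these data known, so this count is not independent evidence. CAMK2N1, an inhibitor of the calcium/calmodulin-dependent kinase CaMKII, fell by 1.22 (SE 0.14, adjusted p = 0.00264). It stood at 9.73 and 9.85 in shControl and at 8.60, 8.58 and 8.54 in shRB, a fall of the bright signal on each array, and passed whichever of the 5 arrays was left out. DDC, the aromatic amino acid decarboxylase that makes dopamine and serotonin, rose by 1.14 (SE 0.14, adjusted p = 0.00363), from 7.57 and 7.47 to 8.67, 8.67 and 8.63. It missed the threshold without shRB replicate 2 (0.0587) or 3 (0.0561). BCHE, a secreted cholinesterase, rose by 1.19 (adjusted p = 0.00315), from 7.50 and 7.53 to 8.75, 8.59 and 8.78, and missed without shRB replicate 3 (0.0617). With 16 subtracted and 4 added none of the 3 passed (0.097, 0.101 and 0.097). IGFBP3, a carrier of insulin-like growth factors, stood at -0.32 (adjusted p = 0.264).

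The androgen receptor's pioneer factors, coregulators and chaperones were measured for 21 of 37 listed genes. None passed (limma), and 5 had an unadjusted p under 0.05, 1 higher and 4 lower, beside 18.1% of all genes. Of the 21 differences 14 lay below and 7 above 0, and the median was -0.14. On every shRB array 10 genes were lower and 2 higher, beside 15.4% lower and 20.6% higher over all genes. Among the 10 is NCOA4, which is also on the androgen-responsive list. The corepressor NRIP1 stood at 8.70 and 8.67 in shControl and 8.30, 8.30 and 8.07 in shRB (-0.47, adjusted p = 0.147). GRHL2, an epithelial transcription factor, stood at 9.31 and 9.37 against 8.96, 8.96 and 8.76 (-0.45, adjusted p = 0.158). The coactivator NCOA2 differed by -0.43 (adjusted p = 0.16) and the mediator subunit MED1 by 0.39 (adjusted p = 0.211). The pioneer factor FOXA1 differed by -0.16 (adjusted p = 0.602), HOXB13 by -0.17 (0.586) and GATA2 by -0.19 (0.524), each with all shRB arrays below both shControl arrays.

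Among enzymes that make or inactivate androgens, 11 of 35 listed were measured and 1 passed (limma), beside 1.07% of all genes. HSD17B6, an oxidative enzyme that can regenerate dihydrotestosterone, stood at 4.54 and 4.68 in shControl and 5.62, 5.30 and 5.53 in shRB. It rose by 0.87 (adjusted p = 0.0286) from a level near the floor, 1.83-fold as deposited and 3.42-fold with 16 taken off, and did not pass without shRB replicate 1, 2 or 3 (0.176, 0.0963 and 0.197). HSD17B4, a peroxisomal enzyme of fatty acid and steroid oxidation, was lower on every shRB array (-0.53, adjusted p = 0.122).

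To name the genes whose pattern over the 5 arrays was most like that of each target, log2 values were centred on their mean and compared by root mean square difference with the 58 androgen-responsive genes. KLK3 was closest to STK39 (0.068 log2 units) and KLK2 to MED28 (0.075), but both deviated less from their own mean (0.038 and 0.062), so that a flat line was closer than any of the 58 genes. STEAP4 was closest to MAK (0.09), C1orf116 to GNMT (0.13), HERC3 to SPCS3 (0.17) and FKBP5 to HOMER2 (0.09). The gene nearest to TARP was SAT1 at 0.45, against 0.72 for the deviation of TARP around its own mean.

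The luminal identity of the cells was described with a list of luminal markers. This list is not separate from those above, since it shares KLK4, FOXA1, HOXB13, KRT8 and KRT19 with them. Of 19 listed luminal genes, 11 were measured, none passed and 2 had an unadjusted p under 0.05, DPP4 (0.59, adjusted p = 0.112) and KLK4. Of the 11 differences 6 were negative and 5 positive, with a median of -0.16. On every shRB array 4 of these genes were lower and 1 higher, beside 15.4% lower and 20.6% higher over all genes. Medians per array were 7.60 to 7.77 in shControl and 7.48 to 7.67 in shRB, and the part of this in the values of the target genes was not tested. The luminal keratin KRT18 was lower on every shRB array (-0.29, adjusted p = 0.366), and CD24 differed by -0.39 (adjusted p = 0.308). The luminal keratin KRT8 went the other way, at 0.23 (adjusted p = 0.573), and EPCAM stood at 0.02 (adjusted p = 0.972). The arrays of CD24, KRT8 and EPCAM overlapped between groups. KRT19 and NPY lay near the floor, between 4.39 and 5.09 on all arrays. FOLH1, which encodes prostate-specific membrane antigen, stood at 9.61 and 9.48 in shControl and 9.68, 9.58 and 9.75 in shRB, far above the floor, with a difference of 0.13 (adjusted p = 0.695). The basal keratins KRT5 and KRT14 lay between 4.65 and 5.59 on all arrays, and no measured basal (6), stromal (5) or neuroendocrine (11) marker passed, with 2, 0 and 2 at an unadjusted p under 0.05. Medians per array were in turn 4.88 to 4.89 in shControl and 4.93 to 5.00 in shRB for basal, 4.62 to 4.78 and 4.61 to 4.83 for stromal, and 4.42 to 4.65 and 4.63 to 4.76 for neuroendocrine genes. Of the 11 neuroendocrine differences 7 were positive and 4 negative, with a median of 0.05. The largest was that of the neuropeptide gene NTS, at 0.72 (limma adjusted p = 0.0552). Its values lay near the floor, at 4.17 and 4.46 in shControl and 4.94, 5.11 and 5.05 in shRB. The most negative was that of SYP, at -0.27.

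**Figure D4:**
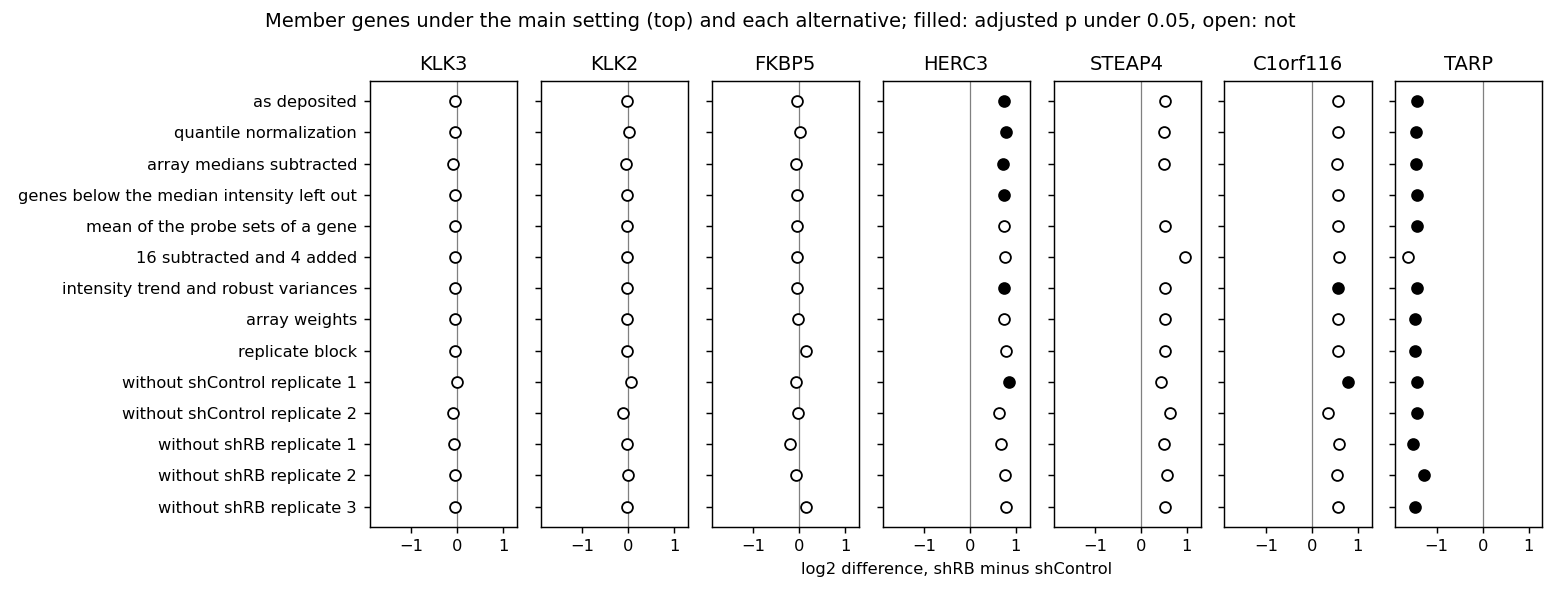
Log2 difference between shRB and shControl (horizontal axis) of each target gene as deposited (top row) and under 13 alternative settings (rows below); filled points had an adjusted p under 0.05. TARP stays between -1.62 and -1.29 and HERC3 between 0.63 and 0.85, while KLK3 stays between -0.09 and -0.01. STEAP4 was not tested where dim genes were left out. Some of the settings cannot change the difference of a gene with 1 probe set.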

How the data were processed

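Single-colour arrays of 5 samples were used. The values are intensities on a linear scale, deposited by the authors in the series value table; how they were summarised and normalized is not given in the sources used here. The lowest values lie just above 16. Of 44607 probe sets, 15835 had 1 gene symbol, 0 had several and 28772 were unnamed here; all named ones matched the RefSeq gene table (GRCh38.p14) by Entrez identifier. The brightest probe set by mean log2 stood for each of 14812 genes, with no filter on dim genes. The values were log2-transformed and compared in R 4.3.3 using limma 3.58.1 (a 2-group lmFit with eBayes, two-sided, Benjamini-Hochberg adjustment over all genes, threshold 0.05). On simulated data with 14812 genes the procedure found 24.2% of true log2 changes of 0.5 and 98.3% of those of 1. The simulated noise was normal and independent, with the spread that this same fit had estimated for each gene. It held no correlation between genes, no floor and no differences between cultures, so these shares apply to such ideal data only. Promoter windows were searched with Python 3.11.15 and aligned with Biopython 1.88. Named genes were the 8 targets, RB1, their families and nearest neighbours, and in each wider list the genes that passed or those with the smallest p. The target genes, lists and alternatives were chosen with earlier results of these data known, so the lists, written for this work from general knowledge, are not independent evidence. The number of arrays limits the precision.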

Additional observations from a re-analysis of the deposited data

How the results depend on the processing

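All 13 alternatives were run, one change at a time. TARP was negative and C1orf116, HERC3 and STEAP4 positive in each one that tested them. These like signs were partly fixed in advance. Each target has 1 probe set, so removing dimmer genes, averaging probe sets or an intensity trend cannot change its difference. The replicate block gives the same differences as leaving out shRB replicate 3. As deposited 159 genes passed, 2 of them targets and 2 androgen-responsive. With the dimmer genes (mean under the median over genes) removed, 7406 genes were left. Of these 385, 2 and 4 passed, and RB1 as well (-0.54, limma adjusted p = 0.0489). With an intensity trend and robust variances 426, 3 and 4 passed, with array weights 88, 1 and 1, and with 16 subtracted and 4 added 13, 0 and 0. Averaging probe sets left 1 target, and quantile normalization 1 androgen-responsive gene and a median of the targets of 0.025. With the replicate number as a block, which leaves shRB replicate 3 without a partner, 24, 1 and 0 passed and the median was 0.14. The numbers were not shown to pair samples: deviations of same-numbered arrays correlated at -0.02 and 0.05. Without 1 array, 22 to 411 genes, 1 to 3 targets and 0 to 2 androgen-responsive genes passed, and the median ran from -0.029 to 0.14, with 0.07 without shControl replicate 1. Without a shControl array, the remaining one is assumed to vary like the shRB arrays. The causes were not tested.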
